A study of Mus musculus with 195 samples.

Results

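Cholesterol synthesis in mouse stem cells grown with and without serum was followed through 7 genes chosen by name from the table of gene counts, namely Hmgcs1, Idi1, Fdps, Fdft1, Sqle, Sc5d and Insig1. All 7 were found by their Ensembl identifiers among the 22440 genes with a molecule or an entry in the series. Counts came from BATSeq, in which an oligo-dT primer with a random molecular identifier (UMI) marks each transcript before amplification, so that a count is a number of transcript molecules and the read gives the polyadenylation site. ESC-2i cells were 46C mouse embryonic stem cells, a line with a Sox1-GFP reporter, kept without serum in a DMEM/F12 based medium with 1 µM of the MEK inhibitor PD0325901, 3 µM of the GSK3 inhibitor CHIR99021 and 10 ng/ml LIF. ESC-FCS cells were the same line in GMEM with 10% serum and 10 ng/ml LIF and no inhibitor. Neural stem cells (NSC) had been derived from embryonic stem cells and grew with EGF and bFGF, without serum and without the inhibitors. All were sorted as small cells in G0/G1. Serum, base medium, inhibitors and, for NSC, cell type therefore differed together and cannot be told apart.

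Cells make cholesterol from acetyl-CoA through the mevalonate pathway, and they also take it up from serum lipoproteins. When sterols in the endoplasmic reticulum are scarce, SCAP escorts the transcription factor SREBP2 to the Golgi, where it is cleaved and then activates genes of synthesis and uptake. When sterols are plentiful, INSIG proteins hold SCAP back. Of the 7 genes, Hmgcs1 makes HMG-CoA near the start of the pathway, Idi1 isomerises the C5 isoprenoid unit, and Fdps joins such units to farnesyl diphosphate. Fdft1 is squalene synthase, Sqle oxidises squalene, Sc5d acts late on the sterol ring, and Insig1 belongs to the brake.

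These genes did not move as a block between serum-free and serum-grown embryonic stem cells. As shares of the molecules counted, Hmgcs1 and Fdft1 were higher in every ESC-2i library than in any ESC-FCS library. By these shares Insig1 was lower in the ESC-2i pools, and Sqle was higher in the pools with no difference beyond counting error in single cells. Fdps lay above ESC-FCS in single cells and below it in the pools. Per molecule of added ERCC spike-in RNA, the log2 ratios of ESC-2i over ESC-FCS single cells were -0.0429 for Hmgcs1 and -0.245 for Fdft1. For Fdps, Sqle and Insig1 they were -0.444, -1.51 and -1.58. Idi1 and Sc5d were too rare to compare. In NSC, which also grew without serum, Hmgcs1 stood at its highest.

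Each population had 48 single cells in 2 library batches, of which 33 ESC-2i, 33 ESC-FCS and 41 NSC cells were used, 107 in all. The comparison was repeated with 42 of 48 further ESC-FCS single cells (control cells), 1 pool of 48 ESC-FCS cells and 2 pools of 48 ESC-2i cells. The labels do not tell whether those 2 are separate pools of cells or repeat libraries, and they were counted as 2 libraries. Molecules on genes summed to 368363 in ESC-2i, 226684 in ESC-FCS, 151877 in NSC, 223055 in the control cells, 974282 in the pools of ESC-2i and 179155 in that of ESC-FCS. Levels are molecules per 10000 molecules on genes, with exact Poisson 95% intervals. Ratios have exact conditional binomial 95% intervals. Both cover counting error only. Each population was 1 culture as far as the labels tell, and cells and batches are not separate cultures, so no test between conditions was possible and no p-value is given.

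The ESC-2i pools stood apart from every other library. The labels state that these cells were sorted into a lysis buffer and that their RNA was purified on beads. The paper also gives sorting into a lysis buffer for single cells, but no bead purification of their RNA before reverse transcription. Ribosomal protein genes took 1.26% and 3.1% of molecules in the ESC-2i pools against 11.1% to 20.3% in the other 9 libraries, the pools held no ERCC spike-in molecule, and they had 3.27 and 4.95 reads per molecule against 6.15 to 14.5 elsewhere. The chi-square per degree of freedom between the 2 pools was 5.78, against 1.52 to 2.44 for other pairs of libraries of a group. This measure grows with the molecules counted, 974282 in the pools against 151877 to 368363 in the other pairs. It therefore does not rank how well the pairs agree. Control cells and ESC-2i cells carried the same 48 pairs of batch and cell barcodes, and every group of single cells used the same 24 cell barcodes. Whether molecules crossed between these libraries was not tested. Summed markers told NSC from embryonic stem cells. The 7 embryonic stem cell markers summed to 17.4 to 29.2 molecules per 10000 in the embryonic stem cell libraries and to 1.13 and 1.25 in NSC, where Nanog was at 0 of 151877 molecules. Single markers did not move together in ESC-2i pools over control cells. There Nanog stood at 3.27, but Sox2, Zfp42 and Tdgf1 at 0.0923, 0.331 and 0.372. Of 5 with at least 20 molecules, 1 was at least 2-fold higher, beside 39.9% of all genes, and 3 lower, beside 16.8%. The 6 neural markers summed to 53.6 and 49 in NSC and to 0.622 to 4.87 elsewhere. Primitive endoderm markers, mostly Lama1, reached 3.09 and 2.38 in the ESC-2i pools against 0.113 to 1.09 elsewhere, with Gata6 and Sox17 at 0, and fibroblast markers stayed at or below 0.139. The part of these in the levels of the 7 genes was not tested.

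Most molecules of each of the 5 commoner genes ended at 1 polyadenylation site. The 30 bases up to that site are printed here because they are the transcript ends on which the counts rest. They were read from GENCODE M21 transcripts on GRCm38, and capitals mark the nearest polyadenylation hexamer, AATAAA or ATTAAA, within 40 bases. The files do not say from which base positions are counted, so a window may be shifted slightly. All 5 sites lie in a 3′ UTR.
Hmgcs1, chr13:119708043-119708072, plus strand: agcaaggccaataactttgaAATAAAgttt
Fdps, chr3:89093591-89093620, minus strand: agggagggggtctcAATAAAttattgttca
Fdft1, chr14:63146404-63146433, minus strand: gaatacctatgacaatagaaAATGAAagca
Sqle, chr15:59331161-59331190, plus strand: ggacaagccAATAAAatgaagagtgaactc
Insig1, chr5:28078624-28078653, plus strand: attctttttttttttacttttATTAAAggt

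The ends of Fdps, Sqle and Insig1 lay 3, 2 and 9 nt before the nearest annotated end of a coding transcript, and that of Hmgcs1 10 nt before it. Fdft1 was the exception. Its site lay 1251 nt before the nearest annotated end of a coding transcript, no AATAAA or ATTAAA was found in the 40 bases before it, and the capitals mark a hexamer 1 base away from AATAAA. Of the 15 bases that follow this site in the transcript, 6.67% were A. The site held 92.2% of 51 Fdft1 molecules in ESC-2i (Clopper-Pearson 95% interval 81.1% to 97.8%), 100% of 18 in ESC-FCS (81.5% to 100%) and 85% of 206 in the ESC-2i pools (79.3% to 89.5%). For Hmgcs1 the shares were 98.9% of 176 molecules in ESC-2i, 100% of 54 in ESC-FCS and 99.2% of 241 in NSC, and the lowest share was 89.8% of 49 in the control cells.

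Hmgcs1 (ENSMUSG00000093930, chr13:119690379-119708260) acts near the start of the pathway. It stood at 4.59 and 4.95 molecules per 10000 in the ESC-2i batches and at 9.09 and 8.25 in the ESC-2i pools. In ESC-FCS it stood at 3.22 and 1.24 in the batches, 2.53 and 1.69 in the batches of control cells and 2.18 in the pool. All 4 ESC-2i libraries thus lay above all 5 ESC-FCS libraries, without overlap. Summed over cells, the level was 4.78 (4.1 to 5.54, 176 molecules) in ESC-2i and 2.38 (1.79 to 3.11, 54 molecules) in ESC-FCS, a ratio of 2.01 (1.47 to 2.77). The ESC-2i pools exceeded the control cells 3.94-fold (2.96 to 5.37) and the ESC-FCS pool 3.98-fold (2.89 to 5.64). The size of the difference among single cells rested on the ESC-FCS batches, which differed from each other: the log2 ratio of 1.00 became 1.94 without ESC-FCS batch 1 and 0.57 without ESC-FCS batch 2.

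**Figure D1:**
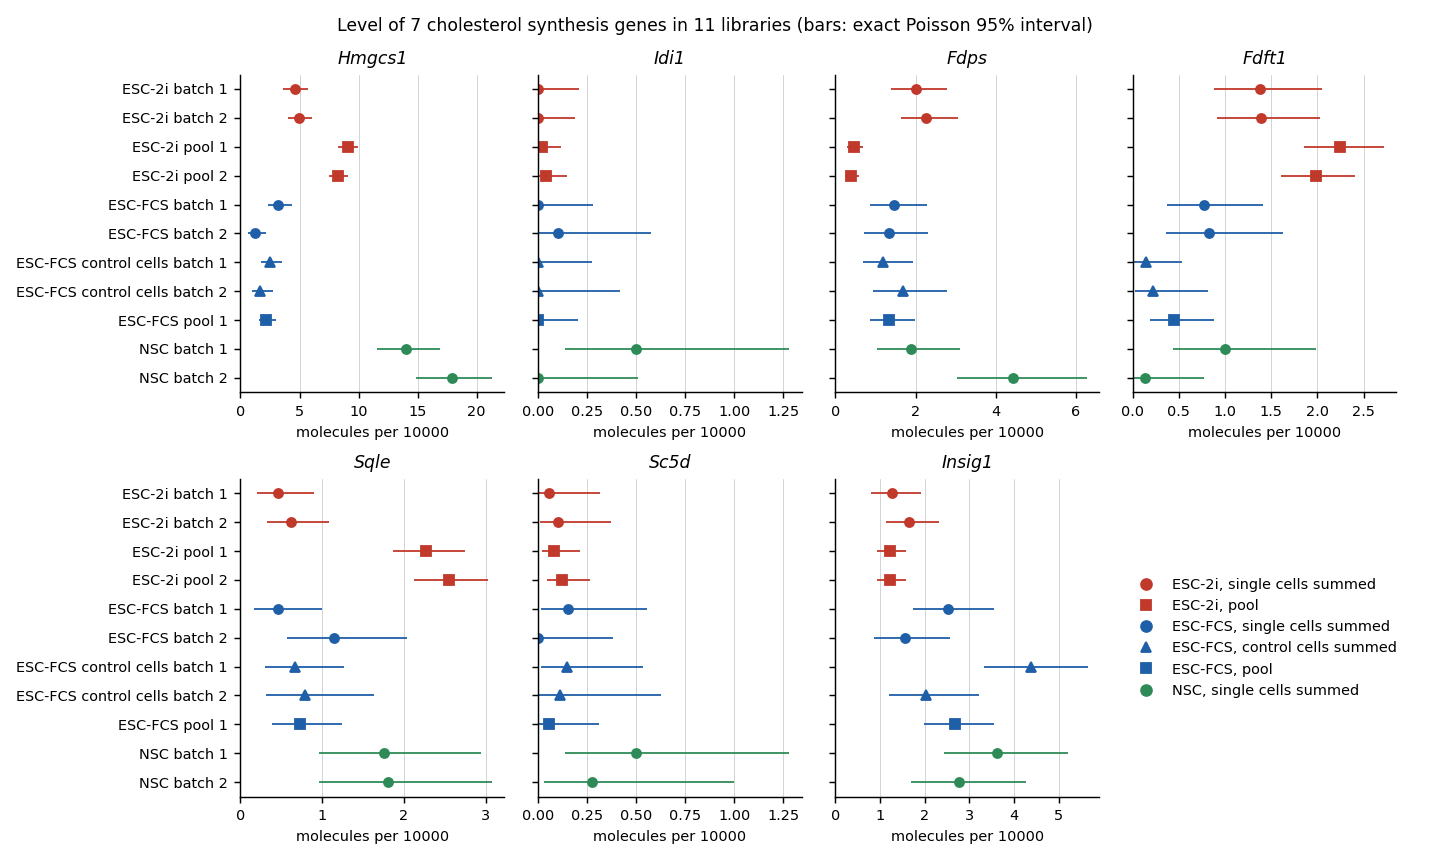
Level of each of the 7 genes (x axis, molecules per 10000 molecules on genes) in the 11 libraries (y axis); points are summed molecules and bars are exact Poisson 95% intervals. Hmgcs1 and Fdft1 lie higher in the 4 ESC-2i libraries (red) than in the 5 ESC-FCS libraries (blue), Fdps is lowest in the ESC-2i pools (red squares), and Idi1 and Sc5d stay at or below 0.501 in every library.

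Fdps (ENSMUSG00000059743, chr3:89093588-89101959) gave opposite directions in cells and in pools as a share of the molecules counted. It stood at 2.01 and 2.27 molecules per 10000 in the ESC-2i batches, above the 1.46 and 1.35 of the ESC-FCS batches, yet at 0.459 and 0.384 in the ESC-2i pools, below the 1.19 and 1.69 of the control cells and the 1.34 of the ESC-FCS pool. All 5 ESC-FCS libraries lay between the ESC-2i batches and the ESC-2i pools. The ratio in single cells was 1.52 (0.996 to 2.37; 79 and 32 molecules), and that of pools over control cells was 0.303 (0.185 to 0.499; 41 and 31 molecules). Over the ESC-FCS pool it was 0.314 (0.185 to 0.544). Per ERCC molecule the log2 ratio in single cells was -0.444.

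Transcript length moved with the pools. Among genes whose longest coding transcript was under 1000 nt, the median log2 ratio of pools over control cells was -2.27 (340 genes), against 0.21 from 1000 to under 2000 nt (1532 genes) and 0.92 from 2000 to under 4000 nt (3289 genes). In single cells these medians were 0.09, 0.05 and 0.08. Fdps, at 1382 nt the shortest of the 7, stood at -1.72, and 22.8% of the genes of its length class were at least 2-fold lower in the pools. Hmgcs1, Fdft1, Sqle and Insig1 have transcripts of 3464, 3698, 2758 and 2697 nt, a class in which 47.8% were at least 2-fold higher and 10.2% at least 2-fold lower. The part of length in the values of the members was not tested.

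**Figure D2:**
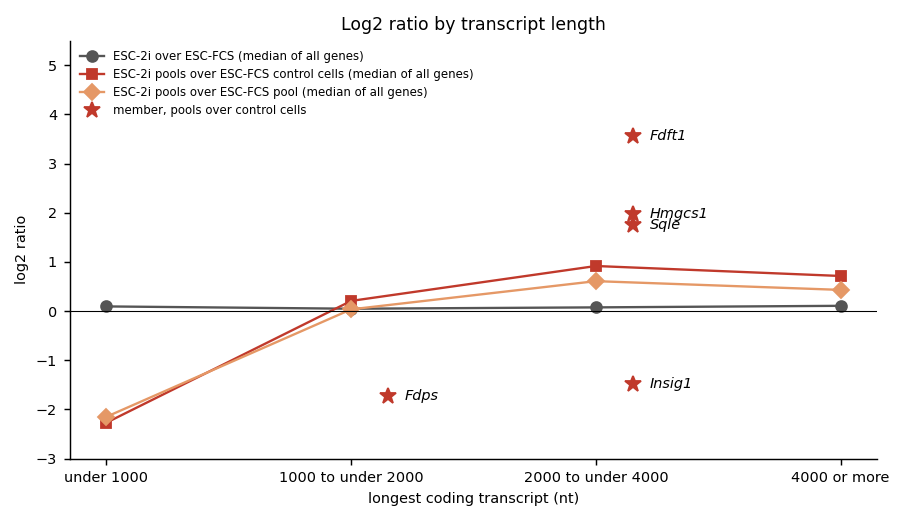
Median log2 ratio of all genes tested (y axis) in 4 classes of longest coding transcript (x axis, nt) for ESC-2i over ESC-FCS cells, ESC-2i pools over control cells and ESC-2i pools over the ESC-FCS pool; stars are 5 of the 7 genes in pools over control cells, placed beside their class. The line for single cells stays near 0, those for the pools start at -2.27 and -2.15 for transcripts under 1000 nt, and Fdps and Insig1 lie below the medians of their classes.

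Fdft1 (ENSMUSG00000021273, chr14:63145150-63179578), which commits isoprenoids to sterols, stood at 1.38 and 1.39 in the ESC-2i batches and at 2.25 and 1.98 in the ESC-2i pools. In ESC-FCS it stood at 0.768 and 0.83 in the batches, 0.149 and 0.226 in the control cells and 0.447 in the pool. Again no ESC-FCS library reached the lowest ESC-2i library. The ratio in single cells was 1.74, with a lower limit at 1.00 and an upper limit of 3.17 (51 and 18 molecules). In pools over control cells it was 11.8 (4.54 to 43.7), where the control cells held 4 molecules, and in pools over the ESC-FCS pool 4.74 (2.36 to 11.1), where that pool held 8. NSC stood at 1 and 0.139 on 8 and 1 molecules, to either side of the range of the ESC-FCS libraries.

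Sqle (ENSMUSG00000022351, chr15:59315077-59331192), a rate-limiting oxygenase of the sterol branch, showed no difference in share beyond counting error between single cells with and without serum. Levels were 0.459 and 0.619 in the ESC-2i batches and 0.461 and 1.14 in the ESC-FCS batches, a ratio of 0.724 (0.36 to 1.47; 20 and 17 molecules) whose interval spans 1 and also larger differences in either direction. Without ESC-FCS batch 2 the log2 ratio of -0.47 turned to 0.24, and without ESC-FCS batch 1 it was -1.07. Per ERCC molecule it was -1.51. The ESC-2i pools stood at 2.27 and 2.55, above the 0.669 and 0.791 of the control cells and the 0.726 of the ESC-FCS pool. These ratios were 3.36 (2.03 to 5.98) and 3.32 (1.91 to 6.34). Both NSC batches, at 1.75 and 1.8, lay above the single-cell libraries of both embryonic stem cell cultures and below the pools of ESC-2i.

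Insig1 (ENSMUSG00000045294, chr5:28071363-28078662) ran the other way. It stood at 1.26 and 1.65 in the ESC-2i batches and at 1.23 in both ESC-2i pools, against 2.53 and 1.56 in the ESC-FCS batches, 4.39 and 2.03 in the control cells and 2.68 in the ESC-FCS pool. The groups overlapped only between the higher ESC-2i batch and the lower ESC-FCS batch. In single cells the ratio was 0.692 (0.461 to 1.04, on 54 and 48 molecules). Its log2 value of -0.53 was -0.09 without ESC-FCS batch 1, 0.06 in reads and -1.58 per ERCC molecule. Pools over control cells gave 0.357 (0.266 to 0.481) and pools over the ESC-FCS pool 0.46 (0.326 to 0.657). The first of these pool ratios leaned on control batch 1: its log2 value of -1.49 was -0.72 without it. A single control cell reached 27.1 molecules per 10000, and variance over the Poisson expectation was 3.43 in the control cells against 0.936 in ESC-2i.

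Idi1 (ENSMUSG00000058258, chr13:8885501-8892451) gave 8 molecules in all libraries together. There were 4 in NSC batch 1, 2 and 1 in the ESC-2i pools and 1 in ESC-FCS batch 2. In ESC-2i single cells 0 of 368363 molecules were Idi1, which allows up to 0.0814 per 10000 at 3 molecules, and the exact Poisson upper limit is 0.1. Sc5d (ENSMUSG00000032018, chr9:42251595-42264256) gave 3 molecules in ESC-2i, 2 in ESC-FCS, 6 in NSC, 3 in the control cells, 10 in the pools of ESC-2i and 1 in that of ESC-FCS. A difference between ESC-2i and ESC-FCS was not detectable at this depth for either gene. The few Sc5d molecules did not all end at the same place: 5 of 6 in NSC and all 3 in the control cells ended at position 42251596, but 0 of 2 in ESC-FCS cells, 1 of 3 in ESC-2i cells and 1 of 10 in the ESC-2i pools did (0.253% to 44.5%), where 7 ended at position 42254738.

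Read against all genes, the count of moved members was modest. In single cells 5 of the 7 genes had at least 20 molecules in ESC-2i and ESC-FCS together, and 1 of them, Hmgcs1, was at least 2-fold higher in ESC-2i, while of the 5007 genes with as many molecules 14.5% were. None of the 5 was at least 2-fold lower, against 8.17% of all. The call of Hmgcs1 sat on the limit and was lost under several other settings. The median log2 ratio of the 5 was 0.60 and that of all genes 0.07. In pools over control cells 3 of 5 were at least 2-fold higher (39.9% of 8064 genes) and 2 of 5 at least 2-fold lower (16.8%). In pools over the ESC-FCS pool the counts were again 3 (31.9% of 8013 genes) and 2 (19.4%). Here the median of all genes was itself shifted, to 0.63 over the control cells and 0.36 over the ESC-FCS pool, beside 1.75 and 1.73 for the 5 genes. With median-ratio scaling, which sets the middle gene to no change, the log2 ratios of pools over control cells were 1.43 for Hmgcs1, 3.01 for Fdft1, 1.20 for Sqle, -2.04 for Insig1 and -2.27 for Fdps. Both pool comparisons share the ESC-2i pools, and by the paper the ESC-FCS pool and the further single cells were made on the same day. They are therefore not separate repeats. Hmgcs1 and Fdft1 were the members whose ESC-2i libraries all exceeded the ESC-FCS libraries, 2 of the 5 with enough molecules, as did 6.22% of 9728 genes. No member had all ESC-2i libraries below, as 3.2% of genes had. The genes behind these shares were not matched to the members in level or transcript length.

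**Figure D3:**
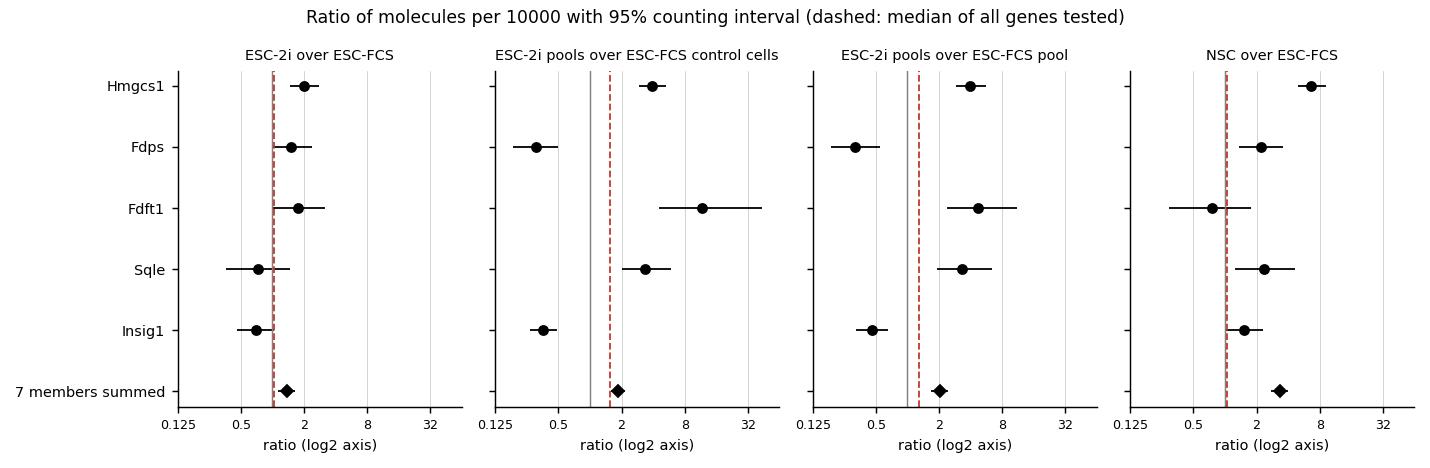
Ratio of molecules per 10000 (x axis, log2 scale) with 95% counting intervals for 5 genes and for the sum of all 7 in 4 comparisons; the grey line is a ratio of 1 and the dashed line the median of all genes tested. Hmgcs1 lies above 1 in all 4 panels, Fdps and Insig1 lie below 1 in both pool panels, and the dashed line is shifted to the right in the pool panels.

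Summed over the 7 genes, the level was 10.4 (9.38 to 11.5) in ESC-2i and 7.59 (6.5 to 8.81) in ESC-FCS, a ratio of 1.37 (1.14 to 1.65). By batch the sums were 9.75 and 11 against 8.6 and 6.22. Hmgcs1 supplied most of it: without that gene the ratio was 1.08. Pools over control cells gave 1.86 (1.59 to 2.18) and pools over the ESC-FCS pool 2.02 (1.69 to 2.43), or 1.07 and 1.2 without Hmgcs1. All of these are shares of the molecules counted. ESC-2i cells held 8.55 ERCC spike-in molecules per 100 molecules on genes and ESC-FCS cells 4.14, and per spike-in molecule the summed ratio was 0.663 and the log2 ratio of Hmgcs1 -0.04. Less RNA per cell and less capture of it cannot be told apart from these counts.

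In NSC the pattern among the 7 genes differed. Hmgcs1 reached 14 and 17.9 molecules per 10000, above all 9 embryonic stem cell libraries, and its summed level of 15.9 (13.9 to 18, 241 molecules) was 6.66-fold that of ESC-FCS (4.94 to 9.12). Fdps stood at 1.88 and 4.44, a ratio of 2.19 (1.37 to 3.55). Sqle had a ratio of 2.37 (1.25 to 4.64) and Insig1, at 3.63 and 2.77, one of 1.52 with a lower limit at 1.00 and an upper limit of 2.32. Fdft1 gave 0.746 (0.295 to 1.75; 9 and 18 molecules). So 3 of 5 were at least 2-fold higher, against 20.9% of 3600 genes, and none was 2-fold lower, against 18.4%. Hmgcs1 and Sc5d were the members with both NSC batches above all 9 embryonic stem cell libraries, 2 of the 6 with at least 20 molecules, as were 8.72% of 10091 genes. Sc5d stood there at 0.501 and 0.277 on 4 and 2 molecules. The summed level of 25.2 (22.8 to 27.9) was 3.32-fold that of ESC-FCS (2.77 to 4), 1.8-fold without Hmgcs1 and 1.31-fold per ERCC molecule. Mitochondrial genome transcripts took 6.09% and 3.97% of NSC molecules against 0.75% to 2.07% elsewhere.

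In single cells Hmgcs1 was spread over most of each population. A molecule was seen in 31 of 33 ESC-2i cells (93.9%, 79.8% to 99.3%), 21 of 33 ESC-FCS cells (63.6%, 45.1% to 79.6%), 25 of 42 control cells (59.5%, 43.3% to 74.4%) and 37 of 41 NSC (90.2%, 76.9% to 97.3%). Median depths were 10864, 6375, 4723.5 and 3282 molecules per cell, so each cell was also thinned to 1000 molecules, after which the expected shares were 37.1%, 20.4%, 18.5% and 68.9%. As a gauge of molecules straying from NSC, Fabp7, a neural gene with 376 molecules in NSC, had 1 molecule among all ESC-2i cells and 1 among all ESC-FCS cells. Ptprz1, with 61 molecules in NSC, had 1 and 3. Fabp7 was at 0 in the control cells, so it cannot gauge crossing between them and ESC-2i cells. The median cell held 4.42 Hmgcs1 molecules per 10000 in ESC-2i, 1.85 in ESC-FCS, 1.78 in the control cells and 12 in NSC, with maxima of 13.7, 8.29, 17 and 58.1. Of the 33 ESC-2i cells, 27 lay above the ESC-FCS median, and 8 of 33 ESC-FCS cells lay above the ESC-2i median, so the populations overlapped. Variance over the Poisson expectation for Hmgcs1 was 2.33 in ESC-2i, 1.39 in ESC-FCS, 1.87 in the control cells and 4.24 in NSC, where a value of 1 is sampling alone. Across cells, Hmgcs1 and the other 6 summed had a Pearson r of 0.272 in 33 ESC-2i cells, 0.0996 in 33 ESC-FCS cells, 0.513 in 42 control cells and 0.343 in 41 NSC. These cells share libraries, the counts are sparse, and both quantities share each cell's total.

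**Figure D4:**
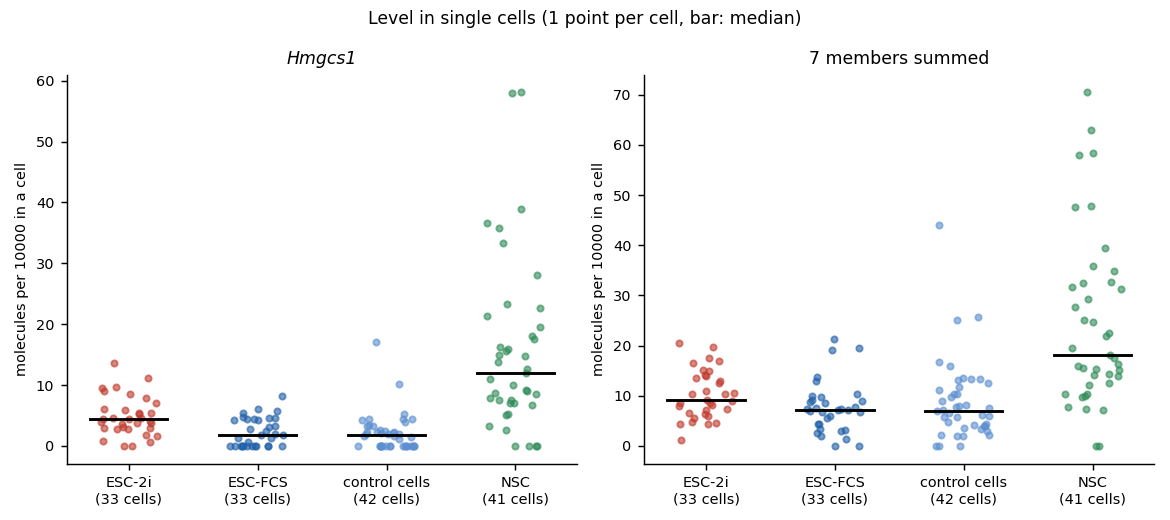
Molecules per 10000 in each cell (y axis) for Hmgcs1 and for the sum of the 7 genes in ESC-2i, ESC-FCS, ESC-FCS control cells and NSC; each point is a cell and the bar is the median. For Hmgcs1 the medians are 4.42, 1.85, 1.78 and 12, and NSC reach 58.1.

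The other genes of sterol metabolism were mixed in embryonic stem cells. Of 15 further synthesis enzymes, 11 had at least 20 molecules in the single cells. Mvk, mevalonate kinase, was the 1 that was at least 2-fold higher, at 2.92 (0.971 to 11.8; 19 and 4 molecules), and Lbr, a sterol reductase and nuclear lamina receptor, the 1 at least 2-fold lower, at 0.497 (0.329 to 0.745). Lbr went the other way in pools over control cells, at 1.6 (1.21 to 2.15), and stood at 0.991 (0.772 to 1.29) over the ESC-FCS pool. The median of the 11 was -0.35 on the log2 scale. In pools over control cells 5 of 14 were at least 2-fold higher, beside 39.9% of all genes, and 1 was lower, beside 16.8%. Cyp51, among the higher, stood at 5.87 (2.92 to 13.8) there but at 0.581 (0.281 to 1.2; 17 and 18 molecules) in single cells. The median of the 14 was 0.77, beside 0.63 for all genes. In NSC over ESC-FCS 7 of 13 were at least 2-fold higher, beside 20.9% of all genes, and 2 lower, beside 18.4%, and the median was 1.44 against 0.05 for all genes. Cyp51 stood in NSC at 4.15 (2.38 to 7.55), whereas Ebp, a sterol isomerase, was lower at 0.157 (0.0177 to 0.651).

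Of the 6 genes of SREBP control, none of the 4 with enough molecules passed 2-fold in single cells. Srebf1 gave 1.3 (0.56 to 3.26), Srebf2 1.4 (0.831 to 2.43) and Scap 0.974 (0.449 to 2.2), and Insig2 had 4 and 2 molecules. In pools over control cells 2 of 5 were at least 2-fold higher and 1, the protease gene Mbtps2, lower at 0.401 (0.157 to 1.1), shares close to the 39.9% and 16.8% of all genes. Srebf1 stood at 5.17 (2.45 to 13.1), Scap at 3.43 (1.87 to 7.01) and Srebf2 at 1.66 (1.14 to 2.5). In NSC 3 of 4 with enough molecules, Srebf1, Srebf2 and Scap, were at least 2-fold above ESC-FCS, at 3.65, 2.31 and 4.1, beside 20.9% of all genes. Mbtps1 stood at 0.988 molecules per 10000 in NSC and 0.926 in ESC-FCS. None of the 3 had both NSC batches above all 9 embryonic stem cell libraries. Of 8 genes of uptake and transport, 3 of 5 with enough molecules were at least 2-fold higher in ESC-2i cells, beside 14.5% of all genes, among them the HDL receptor Scarb1 at 3.08 (1.03 to 12.4) and the lysosomal cholesterol carrier Npc2 at 3.82 (2.71 to 5.5). In pools over control cells and over the ESC-FCS pool Scarb1 was at 3.21 (1.31 to 10.2) and 1.17 (0.616 to 2.45), and Npc2 at 1.99 and 1.35.

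Fatty acid genes were counted beside them, since SREBP1 drives many of these. In single cells 3 of 8 were at least 2-fold higher in ESC-2i, beside 14.5% of all genes, and none was lower: the desaturase Scd1 at 4.13 (1.86 to 10.8), the desaturase Fads1 at 2.95 (1.68 to 5.55) and Acaca, which makes malonyl-CoA, at 2.02 (0.84 to 5.58). The median of the 8 was 0.53. Scd1 stood at 2.59 (0.816 to 13.2) in pools over control cells and at 0.521 (0.263 to 1.11) over the ESC-FCS pool. Fads1 stood at 1.61, 2.27, 2.69 and 2.14 in the ESC-2i libraries and at 0.339 to 0.933 in those of ESC-FCS, without overlap, and it reached 4.89 and 7.35 in NSC. With Fads1, Acaca and Fasn, 3 of 11 fatty acid genes had all ESC-2i libraries above the ESC-FCS libraries, as had 1 of 15 synthesis enzymes, the sterol oxidase Msmo1, beside 6.22% of all genes. The gap of Msmo1 was narrow, 1.2 in ESC-2i batch 1 against 1.15 in ESC-FCS batch 1, and its single-cell ratio was 1.28 (0.766 to 2.21). The esterifying enzyme Soat1, 1 of 5 efflux genes with enough molecules, had all ESC-2i libraries below the ESC-FCS libraries, beside 3.2%. It had 3 molecules in ESC-2i cells and 10 in ESC-FCS cells. None of the other 3 lists held a gene with such a separation. In pools over control cells 7 of 11 fatty acid genes were at least 2-fold higher, beside 39.9% of all genes, with a median of 1.14 against 0.63. In NSC 5 of 8 were, beside 20.9%, with a median of 1.73 against 0.05. Of 7 genes of sterol efflux and its LXR control, 2 had enough molecules in single cells and neither passed 2-fold. In the pools over control cells 2 of 4 were at least 2-fold lower, beside 16.8% of all genes. In NSC 1 of 2, Apoe, was lower, beside 18.4%. Of 6 genes of the isoprenoid branch, 1 of 2 with enough molecules, Fntb, was higher in single cells at 2.64 (1.46 to 5.11), beside 14.5% of all genes. It stood at 1.17 (0.819 to 1.71) in pools over control cells and 1.34 (0.884 to 2.1) over the ESC-FCS pool. In pools over control cells 2 of 6 were higher and 1 lower, shares near the 39.9% and 16.8% of all genes. In NSC 1 of 2, Fnta, was lower, beside 18.4%.

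**Figure D5:**
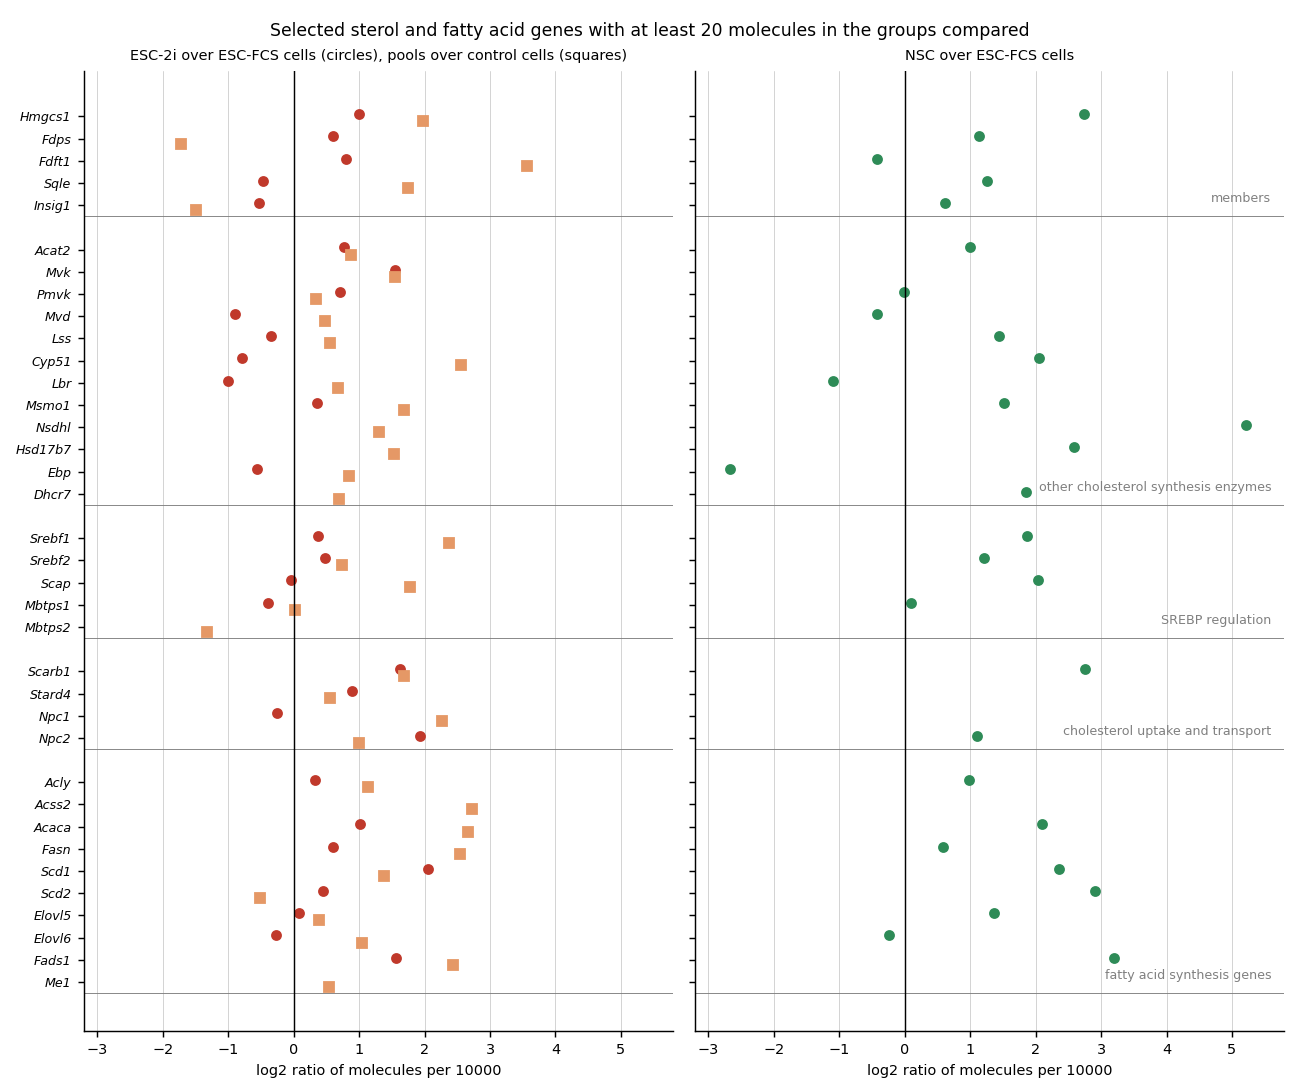
Log2 ratio of molecules per 10000 (x axis) for selected genes of 5 lists with at least 20 molecules in the groups compared (y axis); the left panel shows ESC-2i over ESC-FCS cells (circles) and ESC-2i pools over control cells (squares), the right panel NSC over ESC-FCS. Points of the synthesis genes lie on both sides of 0 in the left panel, with Fdps, Insig1 and Mbtps2 lowest among squares, while most points lie to the right of 0 for NSC. Not every gene of the lists is drawn.

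Over the 11 libraries, the genes outside all lists closest to the mean profile of the 5 measured members were Ckb (Pearson r = 0.969), Sall3 (0.961), Atp6v0e2 (0.951), Eid1 (0.949) and Pck2 (0.947), out of 7065 genes. These values describe likeness to a mean profile of log2 levels with a pseudocount of 0.1, over libraries that share cultures. Ckb stood at 49.6 and 45.1 molecules per 10000 in NSC, at 3.84 to 8.89 in the ESC-2i libraries and at 1.51 to 3.45 in the ESC-FCS libraries. Sall3 stood at or below 0.0768 and Eid1 at 0 in every ESC-FCS library, under the pseudocount. Among the members, r with that profile was 0.918 for Hmgcs1, 0.603 for Sqle, 0.264 for Fdps, 0.248 for Insig1 and 0.0953 for Fdft1. Between members it ran from -0.724 (Fdft1 and Insig1) to 0.614 (Hmgcs1 and Sqle), so the mean does not stand for each of them. The neural markers Fabp7 and Vim, higher in NSC, reached 0.919 and 0.918 with it.

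RefSeq promoter windows on GRCm38.p6, from 250 bases before to 50 after the gene start, were at hand for 4 of the 7 genes, Hmgcs1, Idi1, Sc5d and Insig1. The letters TCACNCCAC, a form of the sterol regulatory element, were searched on both strands, as was CCAAT, the site of NF-Y. TCACNCCAC was found in 1.24% of 32851 promoters, and among the 4 in that of Hmgcs1 alone. The match is shown because Hmgcs1 carried the clearest difference, with the match in capitals and its first base 137 bases before the RefSeq gene start, which lies upstream of the GENCODE start given for the gene.
Hmgcs1 promoter, chr13:119690204-119690233, plus strand: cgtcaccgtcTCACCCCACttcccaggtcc

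CCAAT, found in 37.4% of promoters, had 4 matches in the window of Hmgcs1, 2 in that of Idi1 and 1 each in those of Sc5d and Insig1. A match describes letters and not binding, and no match says only that these letters are not in the window.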

How the data were processed

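The authors deposited counts of UMIs and reads per polyadenylation site for each sample and a table of molecule counts per gene for 107 cells. Per their methods, reads were sorted with HTSeq and custom scripts, aligned with GSNAP to GRCm38 and the ERCC sequences, filtered, collapsed by UMI within a Hamming distance of 1, and merged to sites within 12 nt. No normalization was applied. Cells in that table, control cells with at least 1000 molecules, and all pools were used. The gene table matched sums over sites in all but 4 of 2111752 entries. The authors' table of isoform counts was not used. Symbols came from the reference table of gene names. Counts were summed per library and group and scaled per 10000. Ratios of at least 2-fold were counted where both groups together held 20 molecules or more. A group at 0 was set to 3 molecules, and no ratio was given where both groups held 3 or fewer. Named genes outside the 7 were Srebf1, Srebf2, Scap and Insig2, list genes past 2-fold in the same direction in single cells and in pools over control cells, and the 5 most similar profiles; others named were chosen after their values were seen, and a few genes counted in the lists are not reported here by name. The 7 genes and all lists were chosen with earlier results of these data known. The ratio and its interval were checked on simulated data. Software was Python 3.11.15, numpy 2.4.6, scipy 1.17.1, pandas 2.3.3 and matplotlib 3.10.9.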

Additional observations from a re-analysis of the deposited data

Results flagged for a closer look

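Fdps was singled out because its direction differed between kinds of library: the ratio of ESC-2i over ESC-FCS was 1.52 in single cells, where both ESC-2i batches lay above both ESC-FCS batches, and 0.303 in ESC-2i pools over control cells, where both pools lay below all control batches and the ESC-FCS pool. The single-cell interval ran from 0.996 to 2.37, and per ERCC molecule the single-cell log2 ratio was -0.444. The difference between the 1.52 and the 0.303 was not tested.

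Insig1 was singled out because 1 of 4 ESC-2i libraries, batch 2 at 1.65 molecules per 10000, lay apart from the other 3 at 1.23 to 1.26 by Dixon's limit. Of the 12 groups of libraries examined in this way, 1 was marked, and chance marks about 1 in 20; the 95% counting interval of that batch, 1.13 to 2.33, covers the other 3.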

How the results depend on the processing

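No paired analysis was possible because no result comes from a test and replicate numbers do not mark shared cultures. Levels are shares of a shallow sample of molecules, and depth limits Idi1 and Sc5d most. The summed ratio of ESC-2i over ESC-FCS cells (1.37) was 0.663 per ERCC molecule, 1.66 in reads, 1.08 without Hmgcs1 and 1.21 to 1.67 with a library batch left out, the highest without ESC-FCS batch 1. Per ERCC molecule the log2 ratio of Hmgcs1 was -0.0429 and that of Fdft1 -0.245. Those of Fdps, Sqle and Insig1 were -0.444, -1.51 and -1.58. The count of members at least 2-fold higher (1) was 0 with median-ratio scaling, per ERCC molecule, with all cells, with cells of at least 2000 molecules, at the most used site and without ribosomal protein genes in the totals, 3 in reads and at 1.5-fold, and 0 to 1 with a batch left out, 0 without ESC-2i batch 2 or ESC-FCS batch 2. The summed ratio of pools over control cells (1.86) was 1.27 with median-ratio scaling, 1.59 in reads, 1.58 without ribosomal protein genes in the totals, 1.07 without Hmgcs1, 2.98 without Insig1 and 1.65 to 2.29 with a library left out, the highest without control batch 1. Over the ESC-FCS pool (2.02) it was 1.65 with median-ratio scaling, 2.76 in reads, 1.2 without Hmgcs1, 2.9 without Insig1 and 1.96 to 2.08 with a pool left out. For NSC over ESC-FCS (3.32) it was 1.31 per ERCC molecule, 4.62 in reads, 1.8 without Hmgcs1, 4.02 without Insig1 and 2.93 to 4.05 with a batch left out, the highest without ESC-FCS batch 1. The count of members with no overlap between libraries stayed at 2 in every alternative run for it. It was not run per ERCC molecule, of which the ESC-2i pools held none, nor as a mean over cells or at the most used site. It therefore does not cover the scaling under which the single-cell ratios of Hmgcs1 and Fdft1 fell below 1. The causes of these shifts were not tested. Scaling without ribosomal protein genes and every alternative for single members in the pools were chosen after seeing the data.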
